A study of Homo sapiens with 28 samples.

Results

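Apoptotic cells of a breast cancer line that overexpressed tropomyosin 2.1 (Tpm2.1) were set against control cells carrying an empty vector (EV) over the first 2 days without attachment. The comparison took 12 of the 28 libraries of the series: 6 of apoptotic Tpm2.1 cells and 6 of EV cells, 2 for each line at 5 hours, 1 day and 2 days. The lines were compared within each time, and the differences were averaged over the 3 times with equal weight. Both lines derive from the human breast cancer line MDA-MB-231 (triple negative), and both were grown in DMEM with 10% fetal bovine serum, penicillin-streptomycin and 2 µg/mL puromycin. Suspended cells were held on ultra-low attachment plates. At each time the Tpm2.1 cells were parted on Annexin V beads, and the bound cells are called apoptotic here. No such separation is stated for EV cells, so the line and the passage over beads cannot be told apart in this comparison. The sources used here do not give the construct or say whether a line was a clone or a pool. The 2 libraries of a group are titled biological replicates without a word on how the cultures were set apart, so p values measure the spread between these libraries, which may be technical. Non-apoptotic Tpm2.1 cells of the same cultures and attached cells of both lines (6 hours on tissue culture plates, 2 libraries each) are used for values side by side.

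Tropomyosins are coiled-coil proteins that lie along actin filaments and set which myosins and other proteins can bind them. Tpm2.1, a high-molecular-weight form made from the gene TPM2, is low in many transformed cells. Anoikis is the apoptosis that follows loss of contact with the matrix. It runs through BH3-only proteins such as BIM and BMF, which oppose BCL2-type survival proteins at mitochondria, and it is held back by integrin, growth factor and AKT signals. Annexin V binds phosphatidylserine, a lipid that dying cells move to the outer face of the membrane, often before the membrane breaks.

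Gene counts summed to between 13271736 and 16156388 in the apoptotic libraries and between 13671309 and 20278090 in the EV libraries. TPM2 (ENSG00000198467, hg38 chromosome 9, 35681992 to 35690121, minus strand) checked the labels. Its deposited length-scaled level (FPKM) was 11.2, 13.7 and 12.7 in EV cells at 5 hours, 1 day and 2 days and 783, 1150 and 1370 in apoptotic cells. In CPM, the count scaled to the size of its library, it stood at 34.4 to 46.1 in the 6 EV libraries and at 2460 to 4520 in the 6 apoptotic ones, a log2 difference of 6.42 ± 0.055 (SE; adjusted p = 3.39e-45). Since reads were counted by gene, the values of TPM2 cover all its transcripts. On the FPKM scale TPM4 stood at 72.7 to 79.5 in EV and 79.9 to 99.2 in apoptotic cells, TPM3 at 35.1 to 44.4 and 37.5 to 51.2, and TPM1 at 4.83 to 5.97 and 3.67 to 5.42. The labels call the cells epithelial, and epithelial markers were mixed. CDH1, the E-cadherin gene that defines most epithelia, had 0 counts in all 12 libraries. The keratin gene KRT8 stood at 235 to 385 CPM in EV and 198 to 271 CPM in apoptotic libraries. KRT18 had medians of 144 and 149 CPM, and EPCAM stood at 3.95 to 5.52 and 4.38 to 10.5 CPM. KRT5 and KRT14 reached at most 0.0648 and 0.44 CPM. VIM, for the mesenchymal filament vimentin, had 83925 counts over the EV and 90596 over the apoptotic libraries. Markers of blood cells were close to 0 in both lines (11 genes summed to 2.53 to 5.43 CPM a library, with MS4A1 at 0), and 10 fibroblast genes summed to 46.7 to 113 CPM in EV and 50.9 to 80.8 CPM in apoptotic libraries. Of these COL1A1 stood at 29.1 to 104 and 43.2 to 77 CPM and PDGFRB at 8.38 to 17.7 and 2.08 to 6.67 CPM, while COL1A2 and DCN had at most 9 counts over 6 libraries. On the first principal component of the 12 libraries (34.1% of the variance) all EV libraries lay on the other side from all apoptotic ones, and the second (26.6%) followed time.

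A collagenase and most cytokine, chemokine and antiviral genes tested were higher in apoptotic Tpm2.1 cells, and most NRF2 target and lipid synthesis genes were lower by smaller amounts. Of 17191 genes tested, 3631 were higher (21.1%) and 4100 were lower (23.8%) in the mean of the 3 times at an adjusted p under 0.05. Differences of more than 2-fold were rarer and mostly upward, with 738 genes higher and 245 lower. At 5 hours 2328 genes were higher (13.5%) and 2505 lower (14.6%). At 1 day 2582 were higher (15.0%) and 3178 lower (18.5%), and at 2 days 2771 were higher (16.1%) and 2888 lower (16.8%). Genes called higher at every one of the 3 times numbered 887, and those called lower at every one numbered 848. Both apoptotic libraries lay above both EV libraries at all 3 times in 1819 genes (10.6%) and below them in 1989 (11.6%). The median log2 difference of all tested genes was -0.005, so the list medians below can be read against a value near 0. In bulk RNA fewer cells with a transcript and less of it per cell cannot be told apart.

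**Figure D1:**
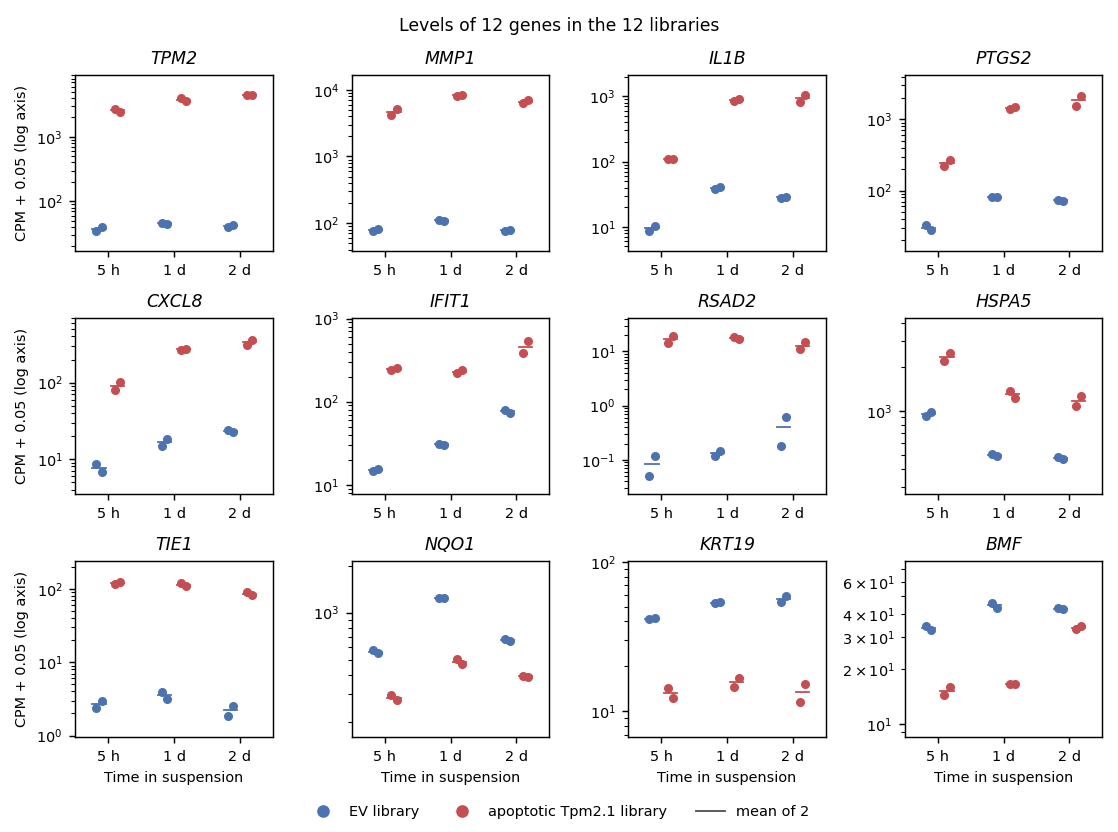
Level of 12 genes (CPM plus 0.05, log axis) in each of the 12 libraries by time in suspension, with EV in blue, apoptotic Tpm2.1 in red and bars at the mean of 2 libraries. TPM2 to TIE1 lie higher in all apoptotic libraries, as for MMP1 at 4190 to 8390 against 76.6 to 110 CPM, and NQO1, KRT19 and BMF lie lower than EV at each time.

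MMP1 (ENSG00000196611, chromosome 11, 102789920 to 102798160, minus strand) encodes interstitial collagenase, which cuts fibrillar collagens. It stood at 76.6 and 81.9 CPM in the EV libraries at 5 hours, 110 and 109 at 1 day, and 76.9 and 78.7 at 2 days. In the apoptotic libraries it stood at 4190 and 5180, 8140 and 8390, and 6320 and 7030 CPM. The groups were far apart at every time, with a mean log2 difference of 6.18 ± 0.051 (adjusted p = 1.63e-45). MMP3, for stromelysin 1, lies close to MMP1 on chromosome 11 (102835801 to 102843803). It stood at 3.22 to 3.91 CPM in the EV libraries and at 38.8 and 53.8, 174 and 169, and 114 and 154 CPM in apoptotic libraries at 5 hours, 1 day and 2 days. Its mean log2 difference was 4.87 ± 0.095. Of 16 matrix metalloproteinase and inhibitor genes listed, 12 passed the count filter, and 8 were higher and 3 lower, with a median of 0.55. Among the inhibitors, TIMP1 was higher by 0.77 ± 0.044 in the mean and TIMP2 was lower (-0.47 ± 0.03).

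The plasminogen system, in which urokinase on its receptor makes plasmin at the cell surface, was also mostly higher, with 7 of 9 genes higher, 1 lower and a median of 0.73. SERPINB2, an inhibitor of urokinase, stood at 1.49 to 3.95 CPM in EV and 18 to 41.8 in apoptotic libraries (3.54 ± 0.096). PLAUR, the urokinase receptor, was higher by 1.22 ± 0.038, PLAU, urokinase itself, by 1.02 ± 0.041, and TFPI2, a protease inhibitor of the matrix, by 1.78 ± 0.066. Ranges did not overlap for SERPINB2, PLAUR, PLAU or TFPI2 over the 6 libraries of each line.

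Other genes at the top of the ranking came from unlike families. TIE1 (ENSG00000066056, chromosome 1, 43300993 to 43323108), an orphan receptor kinase of endothelial cells, stood at 1.82 to 3.85 CPM in EV and 83.2 to 123 in apoptotic libraries, a log2 difference of 5.29 ± 0.065. ESM1, a secreted proteoglycan of endothelial cells, stood at 0.14 to 0.686 and 9.23 to 15.4 CPM (5.05 ± 0.16). Endothelial markers as a list were mixed: of 10, TIE1 among them, 5 passed the filter, with 3 higher and 1 lower. KDR stood at 3.91 to 4.91 CPM in EV and 8.89 to 11.3 in apoptotic libraries, and ESAM at 99.9 to 143 and 140 to 257 CPM. PECAM1 stood at 1.99 to 7.46 and 0.912 to 6.05 CPM, and VWF at 1.61 to 2.23 and 0.635 to 3.06 CPM. CDH5, TEK, ERG and EMCN had 0 to 7 counts over 6 libraries of either line. The summed level of the endothelial list was 115 to 158 CPM in EV and 259 to 396 CPM in apoptotic libraries. CH25H, which makes 25-hydroxycholesterol and is induced by interferon, stood at 0 to 1.99 and 11.1 to 20.4 CPM (5.83 ± 0.2). GPAT2, a mitochondrial acyltransferase, had 0 counts in both EV libraries at 5 hours and 13.1 and 14.8 CPM in apoptotic libraries, at least 145-fold higher than a floor of 3 counts over the group, and 8.42 and 9.19 against 0.13 and 0.374 CPM at 2 days. Fitted folds of genes with no counts in EV depend on a prior count and are no bound.

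NF-kB is a family of transcription factors that inflammatory receptors free from inhibitors in the cytoplasm, and its targets include cytokines, chemokines and its own inhibitors. Of 22 NF-kB and inflammatory genes, all tested, 21 were higher in apoptotic cells and 1 was lower, with a median of 1.06. The lower gene, named after its values were seen, was CSF1, the macrophage growth factor, at 486 to 1210 CPM in EV and 264 to 470 in apoptotic libraries. IL1B, interleukin 1 beta, stood at 8.56 and 10.4, 37.9 and 40.2, and 27.5 and 28.9 CPM in EV libraries at 5 hours, 1 day and 2 days. In apoptotic libraries it stood at 109 and 110, 858 and 920, and 811 and 1060 CPM. The lines did not overlap at any time, and the mean log2 difference was 4.36 ± 0.055 (adjusted p = 3.46e-39).

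PTGS2 encodes cyclooxygenase 2, which starts prostaglandin synthesis. Its EV libraries lay at 27.9 to 80.3 CPM, and its apoptotic libraries at 218 and 271, 1390 and 1510, and 1550 and 2150 CPM over the 3 times (3.95 ± 0.07). CSF3, the granulocyte growth factor, stood at 33.1 to 99.8 CPM in EV and 104 to 509 in apoptotic libraries (2.16 ± 0.043), so its ranges did not overlap. TNFAIP3, which encodes the NF-kB feedback inhibitor A20, was higher by 2.08 ± 0.05. Counts for the list were 20, 19 and 19 higher at the 3 times with 1 lower each time.

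Chemokines draw leukocytes, and those tested were nearly all higher: 11 of 13 passed the filter, 10 were higher and 1 lower, with a median of 3.47. The lower gene, CCL2, named after its values were seen, was low in both lines (1.49 to 6.45 CPM in EV, 0.0629 to 1.51 in apoptotic libraries). CXCL8, the neutrophil chemokine, stood at 8.5 and 6.73, 14.7 and 18.2, and 23.7 and 22.7 CPM in EV libraries, and at 80.8 and 101, 268 and 275, and 313 and 362 CPM in apoptotic ones. It was higher by 3.82 ± 0.078 (adjusted p = 3.52e-32). CXCL1, CXCL2 and CXCL3, members of a cluster on chromosome 4 with near-identical sequences whose reads may be split between them, were higher by 3.95 ± 0.097, 3.14 ± 0.092 and 3.38 ± 0.12. CXCL10, the interferon-induced chemokine, had 0 counts in EV at 5 hours and 4.95 and 6.87 CPM in apoptotic libraries, at least 62-fold above the floor, and 15.5 and 21.1 against 0.908 and 1.18 CPM at 2 days. Without the second apoptotic library of 5 hours 8 chemokines were called higher, and over the other settings tried without 4 days 9 or 10.

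The promoters of CXCL1, CXCL2 and CXCL3 are shown because all 3 genes were higher in apoptotic cells and share the same match to an NF-kB motif at nearly the same distance from the start. Sequences are RefSeq promoters on GRCh38.p14, 5′ to 3′ on the gene's strand, with the match in capitals; the motif is GGG, any 2 bases and TTTCC, searched on both strands. The stretches lie at chr4:73869304-73869333 (plus strand), chr4:74099254-74099283 (minus) and chr4:74038749-74038778 (minus), and their matches start 79, 78 and 79 bases before the RefSeq start. In GENCODE 29 the CXCL2 and CXCL3 stretches fall in the first exon of a longer transcript of each gene, and the CXCL1 stretch lies upstream of the gene.
CXCL1: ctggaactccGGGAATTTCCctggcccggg
CXCL2: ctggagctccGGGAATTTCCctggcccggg
CXCL3: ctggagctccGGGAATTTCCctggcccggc
The motif was searched on both strands of the 250 bases before each start. It was found in 608 of 35116 promoters (1.73%), in 5 of the 8 chemokine promoters found in the table (62.5%), in 5 of 17 of the NF-kB list (29.4%) and in 2 of 22 of the interferon list (9.09%). IL1B, PTGS2 and CXCL8 had no match to these letters in this window. A match is a string of letters and was not tested for binding.

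Type I and type III interferons signal to transcription factors, STAT2 and IRF9 among them, which bind a repeated GAAA element and raise a shared set of antiviral genes. Of 30 interferon-stimulated genes, all tested, 22 were higher and 2 lower, with a median of 1.14, and in 22 genes both apoptotic libraries lay above both EV libraries at every time. The 2 lower genes were STAT2 (-0.14) and XAF1 (-0.66), named after their values were seen. Neither was called without 1 day (STAT2 at -0.09, adjusted p = 0.158; XAF1 at -0.48, adjusted p = 0.0717), nor was XAF1 without 2 days (-0.41; adjusted p = 0.129). IFIT1, which binds viral RNA ends, stood at 14.7 and 15.4, 31.1 and 30.0, and 79.5 and 73.9 CPM in EV libraries and at 240 and 256, 219 and 239, and 383 and 536 CPM in apoptotic ones. The EV level was highest at 2 days, and still every apoptotic library lay above every EV library. Its mean log2 difference was 3.18 ± 0.063. IFIT2, a relative, was higher by 3.31 ± 0.053, IFIT3 by 2.21 ± 0.048 and OASL, a relative of the oligoadenylate synthetases, by 3.19 ± 0.053.

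RSAD2, which encodes the antiviral enzyme viperin, stood at 0 to 0.561 CPM in EV and 10.9 to 19.5 in apoptotic libraries, and its fitted difference of 7.17 ± 0.22 rests on a few EV counts. MHC class I and antigen processing genes, which interferon also raises, were less uniform, with 7 of 12 higher (4 without 5 hours), 2 lower and a median of 0.13. TAP2, a peptide transporter, was higher by 0.42 ± 0.041, and HLA-E by 0.26 ± 0.034. NLRC5, the activator of class I genes, was lower (-0.64 ± 0.057).

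The promoters of IFIT1, IFIT3 and CXCL10 are shown because they hold an element of GAAA, any 2 bases and GAAA, here in capitals (TTTC, 2 bases and TTTC on the opposite strand). They lie at chr10:89392497-89392539 (plus strand), chr10:89327831-89327894 (plus) and chr4:76023699-76023728 (minus) of GRCh38.p14, upstream of the gene in GENCODE 29 except for the last base of the IFIT3 stretch, which begins a longer first exon. The matches begin 116 and 103 bases before the RefSeq start in IFIT1, 156 and 122 in IFIT3, and 221 in CXCL10.
IFIT1: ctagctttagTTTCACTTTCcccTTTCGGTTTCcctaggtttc
IFIT3: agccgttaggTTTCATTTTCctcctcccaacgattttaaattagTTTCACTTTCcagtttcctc
CXCL10: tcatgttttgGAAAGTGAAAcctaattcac
The element was found in 1061 of 35116 promoters (3.02%), in 13 of the 22 promoters of the interferon list in the table (59.1%), in 0 of 17 of the NF-kB list and in 1 of 8 chemokine promoters (12.5%). RSAD2 had no match in this window.

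**Figure D2:**
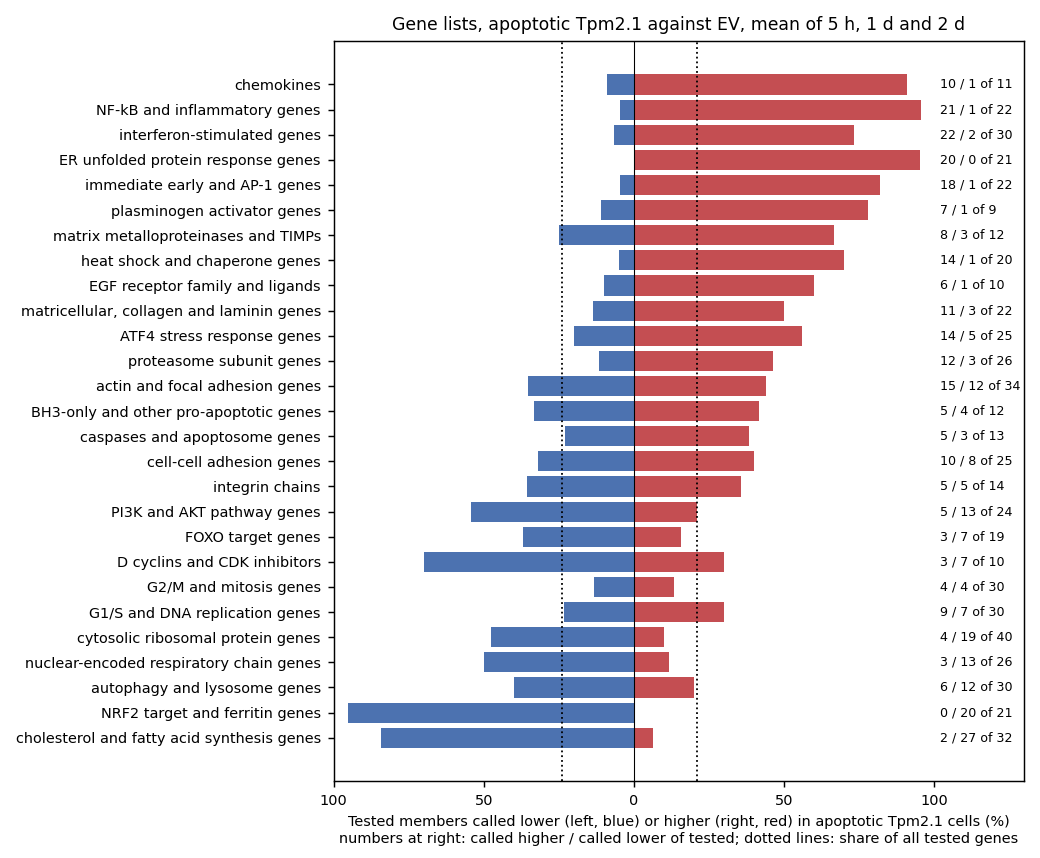
Share of tested members of 27 gene lists called lower (left, blue) or higher (right, red) in apoptotic Tpm2.1 cells in the mean of 3 times, with counts at right and dotted lines at the share of all tested genes (23.8% lower, 21.1% higher). Chemokines, NF-kB, interferon and unfolded protein genes extend to the right, and NRF2 and cholesterol genes to the left.

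Stress genes of the endoplasmic reticulum were higher. The unfolded protein response raises chaperones and degradation factors when proteins misfold in that compartment. Of 21 such genes 20 were higher and 0 lower, with a median of 0.60, and in 20 genes both apoptotic libraries lay above both EV libraries at every time. EDEM1, a degradation factor, was the gene that was not called, named after its value was seen. HSPA5, the main chaperone of the compartment (BiP), stood at 916 and 977, 502 and 486, and 483 and 466 CPM in EV libraries and at 2190 and 2500, 1370 and 1220, and 1080 and 1260 CPM in apoptotic ones. It declined in both lines after 5 hours and stayed apart, with a mean log2 difference of 1.34 ± 0.04. HYOU1, a co-chaperone, was higher by 1.12 ± 0.033, HERPUD1, of the degradation machinery, by 1.29 ± 0.038 and MANF, a secreted chaperone partner, by 0.93 ± 0.038.

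ATF4 directs the integrated stress response, which many stresses share. Of 25 of its genes 14 were higher and 5 lower (3 without 5 hours), with a median of 0.18. PPP1R15A, which ends that response, was higher by 0.70 ± 0.033, CEBPB by 0.79 ± 0.042, ATF4 itself by 0.56 ± 0.034 and DDIT4, an inhibitor of mTORC1, by 0.72 ± 0.047. DDIT4 differed by 1.40, -0.08 and 0.82 at the 3 times, so the mean stands for the first and last time more than for 1 day. Cytosolic heat shock and chaperone genes were higher in 14 of 20 tested cases (21 listed) and lower in 1, with a median of 0.20. DNAJB1, a partner of HSP70, stood at 297 and 309 CPM in EV and 855 and 967 CPM in apoptotic libraries at 5 hours, and at 213 in both EV and 220 and 244 in apoptotic libraries at 2 days. HSPA1B, a stress HSP70 gene nearly identical to HSPA1A and so uncertain in its reads, was higher by 0.95 ± 0.053.

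Immediate early genes, which growth factor and stress signals raise without new protein synthesis, were higher in 18 of 22 cases and lower in 1, with a median of 0.57. EGR1 stood at 16.8 to 47.8 CPM in EV and 50.1 to 111 in apoptotic libraries (1.37 ± 0.053), JUNB was higher by 1.08 ± 0.044, MAFF by 1.04 ± 0.048 and MYC by 0.69 ± 0.036. Of 10 EGF receptor family genes and ligands 6 were higher and 1 lower. HBEGF, a ligand that is shed from the membrane, stood at 19.5 to 30.4 CPM in EV and 62.9 to 114 in apoptotic libraries (1.77 ± 0.047), and the ligand EREG was higher by 1.22 ± 0.05. The receptor EGFR was higher by 0.60 ± 0.029 and its partner ERBB2 was lower (-0.59 ± 0.04). Feedback regulators of ERK were higher in 9 of 15 cases and lower in 3, with DUSP6 at 0.59 ± 0.038. Targets of YAP and TAZ, which respond to cell shape and contact, gave 11 of 22 higher (7 without 1 day) and 4 lower (7 without 5 hours), with a median of 0.12. CYR61 and CTGF, the targets most used as a readout, were higher by 0.73 ± 0.048 and 0.50 ± 0.05 in the mean, and differed by 0.15 and -0.01 at 2 days.

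Genes of the cell death machinery moved both ways against EV, and their counts between the 2 Tpm2.1 fractions are given further below. Of 13 BH3-only and related genes 12 were tested, 5 were higher and 4 lower, and the median was 0.04. The lower genes came to 2 without 5 hours, without the second apoptotic library of 5 hours, without the first of 2 days or after a correction for GC content. PMAIP1 (NOXA), which opposes MCL1, stood at 30.0 to 54.9 CPM in EV and 90.9 to 139 in apoptotic libraries, and was higher by 1.42 ± 0.046. BID, which links death receptors to mitochondria, was higher by 0.84 ± 0.06. BMF, which is released from the cytoskeleton in detached cells, stood at 34.3 and 32.6, 46.1 and 43.1, and 43.2 and 42.3 CPM in EV libraries and at 14.3 and 15.8, 16.5 and 16.6, and 33.0 and 34.2 CPM in apoptotic ones. It was thus lower in both apoptotic libraries than in the EV libraries of every time, with a mean log2 difference of -0.97 ± 0.053 (adjusted p = 2.77e-18).

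Among the 5 survival genes of the BCL2 family 2 were higher and 2 lower. BCL2A1, an NF-kB target, stood at 3.78 to 8.63 CPM in EV and 19.6 to 26.9 in apoptotic libraries (2.10 ± 0.074), and MCL1 at 280 to 363 and 449 to 680 CPM (0.78 ± 0.029). BCL2L1, for BCL-XL, was lower (-0.16 ± 0.035), though not without 2 days (-0.10; adjusted p = 0.0733). BCL2 was lower too (-0.28 ± 0.088), but was not called without 5 hours (-0.16; adjusted p = 0.275) or without the second EV library of 1 day (-0.24; adjusted p = 0.0505). Of the inhibitor of apoptosis genes and CFLAR 6 of 7 were tested, with 2 higher and 1 lower. BIRC3, an NF-kB target, stood at 7.59 to 27.8 and 71.5 to 165 CPM (2.74 ± 0.054), BIRC2 was higher by 0.93 ± 0.038, and XIAP, which binds caspases, was not called (-0.07 ± 0.045; adjusted p = 0.206), but was called lower after a correction for GC content (-0.10; adjusted p = 0.0323) and without 1 day (-0.17; adjusted p = 0.0111).

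Of 13 caspase and apoptosome genes 5 were higher and 3 lower, with a median of 0.08. CASP4, the inflammatory caspase, was higher by 0.74 ± 0.046, while CASP6 was lower (-0.57 ± 0.062). Of death receptors, ligands and adaptors 12 of 15 were tested, 7 were higher and 5 lower (3 without 2 days). The TRAIL receptors TNFRSF10B and TNFRSF10D, the second a decoy, were higher by 0.45 ± 0.033 and 0.68 ± 0.034. The flippases and scramblases that hold or expose phosphatidylserine, the lipid on which the cells were parted, showed 4 of 13 tested genes higher and 2 lower with a median of 0.09. The 2 lower calls were lost in most settings tried, DESeq2 and the compared libraries alone among them, and 2 were higher without the second EV library of 5 hours. PLSCR1, an interferon-induced scramblase family member, was higher by 0.24 ± 0.055. The p53 targets gave 4 of 15 higher and 5 lower (2 without 1 day). Among them CDKN1A, for the cell cycle inhibitor p21, was higher by 0.97 ± 0.035 and SESN2 by 1.07 ± 0.094. TP53I3 and XPC were lower, at 0.795 and 0.829 times the EV level in the mean.

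PI3K makes the lipid that brings AKT to the membrane, where AKT blocks FOXO factors and death signals. Of 26 genes of the pathway 24 were tested, 5 were higher and 13 lower, with a median of -0.16, and 1 was higher without 2 days. AKT1 stood at 153 to 166 CPM in EV and 132 to 145 CPM in apoptotic libraries (-0.20 ± 0.039; adjusted p = 6.01e-05). AKT2 stood at 121 to 144 and 95.9 to 119 CPM (-0.26 ± 0.038; adjusted p = 2.67e-07). These differences are small, although the ranges of the 6 libraries of each line did not overlap for AKT1 or AKT2. The insulin receptor gene INSR (-0.59 ± 0.05) and INPP4B, a lipid phosphatase that brakes the pathway (-0.44 ± 0.054), were lower. FOXO targets gave 3 of 19 tested higher and 7 lower. The 4 of them with the smallest p were SOD2, a mitochondrial superoxide dismutase and also an NF-kB target (1.26 ± 0.051), CAT, for catalase (-0.79 ± 0.039), PDK4, a brake on pyruvate use (-1.25 ± 0.094), and INSR.

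EPHA2, a receptor kinase for ephrin-A ligands and the gene named with AKT in the series title, crossed over. It stood at 202 and 213 CPM in EV and 351 and 350 in apoptotic libraries at 5 hours, at 463 and 452 and at 564 and 525 CPM at 1 day, and at 676 and 715 and at 559 and 539 CPM at 2 days. Apoptotic libraries were thus above EV at 5 hours and 1 day and below at 2 days, with log2 differences of 0.76, 0.25 and -0.34. The mean of 0.22 ± 0.03 passed the test (adjusted p = 8.07e-08) but does not describe any single time, and it turned to -0.05 without 5 hours. The change from 5 hours to 2 days was -1.10 (adjusted p = 8.56e-14). Of 19 Eph receptors and ephrins 16 were tested, 7 were higher and 3 lower. EPHB4 was lower (-0.36 ± 0.038), and EPHA3 and EPHA7 had 0 counts in EV at 2 days and were at least 20.4-fold and 24.6-fold higher there against the floor.

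Adhesion genes gave no common direction. Of 32 cell-cell adhesion genes 25 were tested, with 10 higher, 8 lower and a median of 0.05. JUP, for plakoglobin of junctions and desmosomes, stood at 17.8 to 85.6 CPM in EV and 9.76 to 29.3 CPM in apoptotic libraries (-1.42 ± 0.074), and PKP3, for plakophilin 3, was lower by -0.63 ± 0.06. MCAM, an adhesion molecule of the immunoglobulin family, was higher by 0.91 ± 0.054 and NECTIN1 by 0.45 ± 0.045. Of 14 integrin chains tested 5 were higher and 5 lower. ITGA10, a collagen-binding chain, was lower (-1.64 ± 0.083), and ITGA2, another, was higher by 0.38 ± 0.034.

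Matrix genes were more often higher than lower, with 11 of 22 tested (24 listed) higher, 3 lower (5 without 5 hours) and a median of 0.17. LAMB1, a laminin chain of basement membrane, stood at 42.1 to 48.0 CPM in EV and 147 to 172 in apoptotic libraries, close to constant within each line, and was higher by 1.81 ± 0.043. THBS1, for thrombospondin 1, stood at 201 to 271 and 86.0 to 141 CPM (-1.13 ± 0.045). Of 34 actin and focal adhesion genes tested, 15 were higher (8 without 5 hours) and 12 lower with a median of 0.03. DSTN, for the filament-severing protein destrin, was lower (-0.62 ± 0.033), and ACTN1, for the cross-linker alpha-actinin 1, was higher by 0.30 ± 0.028. TPM4 (0.19 ± 0.028) and TPM3 (0.11 ± 0.032) were called higher and TPM1 (-0.22 ± 0.037) lower, all by far less than TPM2. TPM3 was not called without 5 hours (0.06; adjusted p = 0.207) or without 2 days (0.08; adjusted p = 0.0921).

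Activin and BMP genes were among those that differed within the TGF-beta list, where 8 of 23 were higher and 7 lower. INHBA, an activin subunit, was higher by 1.14 ± 0.054, while INHBB, the other, was lower (-2.01 ± 0.13). SMAD6, an inhibitor of BMP signals, was lower (-1.24 ± 0.096), as was BMP4 in the mean (-0.65 ± 0.036). Mesenchymal genes gave 5 of 10 tested higher and 2 lower. ZEB2, a repressor of epithelial genes, was higher by 0.84 ± 0.072, S100A4 was lower (-1.25 ± 0.12) and VIM was higher by 0.16 ± 0.028, though not without 2 days (0.08; adjusted p = 0.0792), where 3 of the list were higher. KRT19, a keratin of simple epithelia, stood at 41.4 to 58.9 CPM in EV and 11.6 to 16.6 in apoptotic libraries (-1.84 ± 0.062), with no overlap.

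Most genes of the NRF2 and lipid synthesis lists were lower. NRF2 is the transcription factor that oxidants free to raise detoxifying enzymes. Of 21 NRF2 targets and ferritin genes 20 were lower and 0 higher, with a median of -0.35, and NFE2L2, which encodes NRF2, was the gene that was not called, named after its value was seen. NQO1, a quinone reductase, stood at 574 and 551, 1240 and 1250, and 678 and 654 CPM in EV libraries and at 297 and 274, 504 and 465, and 395 and 387 CPM in apoptotic ones. Both lines peaked at 1 day, and every apoptotic library lay below the EV libraries of its time (-1.03 ± 0.036; adjusted p = 2.89e-24). TKT, for the transketolase of the pentose phosphate pathway, was lower by -0.50 ± 0.033. AKR1C1 and AKR1C2, near-identical reductases whose reads may be split, were lower by -1.25 ± 0.085 and -2.45 ± 0.18. Without 5 hours 12 of the list were lower and 1 was higher, against 15 to 20 lower in the other settings tried without 4 days.

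Cholesterol and fatty acid synthesis genes, which SREBP factors raise when membrane sterol is low, were lower in 27 of 32 cases and higher in 2, with a median of -0.46. In 24 genes both apoptotic libraries lay below both EV libraries at every time. ACACA and ACLY, which make malonyl-CoA and acetyl-CoA, were lower by -0.78 ± 0.04 and -0.70 ± 0.036, and LSS, which closes the sterol rings, by -0.78 ± 0.042.

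The genes with the lowest log2 differences had varied roles. Besides AKR1C2 they were RAB17, a small GTPase of epithelial membrane traffic (-2.40 ± 0.21), HCAR1, the lactate receptor (-2.40 ± 0.15), TENM4, a teneurin (-2.18 ± 0.17), VIPR1, a receptor of vasoactive intestinal peptide (-2.05 ± 0.12), INHBB, AK5, an adenylate kinase (-2.00 ± 0.12), and LBH, a transcription cofactor (-1.99 ± 0.12). RAB17 rose with time in EV, from 1.3 and 1.58 to 12.7 and 12.3 and to 28.5 and 38.3 CPM, and stood at 0.391 to 3.84 CPM in apoptotic libraries. INHBB stood at 8.45 and 10.5 against 6.39 and 6.97 CPM at 5 hours and at 26.1 and 29.9 against 2.87 and 6.54 CPM at 2 days. In both genes the gap widened from 5 hours to 2 days, by -1.89 in RAB17 and -2.07 in INHBB. The change in RAB17 was not called without the second apoptotic library of 5 hours (-1.47; adjusted p = 0.351), the second apoptotic library of 2 days (-1.69), the first EV library of 5 hours (-1.75) or the second EV library of 2 days (-1.65).

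Cell cycle genes changed side with time. G2/M and mitosis genes gave 4 of 30 higher and 4 lower in the mean, but 0 higher and 15 lower at 1 day and 14 higher and 2 lower at 2 days. The mean without 1 day gave 11 higher, the mean without 2 days 2 higher and 11 lower, and a correction for GC content 7 lower. G1/S and replication genes gave 13 of 30 higher and 1 lower at 5 hours, and 2 higher and 13 lower at 1 day. At 2 days they were mixed, with 7 higher and 9 lower. TOP2A, topoisomerase of dividing cells, was lower by -0.64 ± 0.036 in the mean. CCND2, for cyclin D2, stood at 0.333 to 1.18 CPM in EV and 4.04 to 8.19 in apoptotic libraries (3.07 ± 0.16), and CCND1, for cyclin D1, was lower (-0.54 ± 0.033). D cyclins and CDK inhibitors gave 3 of 10 tested higher and 7 lower, with a median of -0.22, and 4 lower after a correction for GC content. Replication-dependent histone genes, few of which carry the tail that poly-T beads bind, gave 6 of 9 tested (15 listed) higher and 0 lower.

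Housekeeping lists had small medians. Cytosolic ribosomal protein genes gave 4 of 40 higher and 19 lower in the mean, with a median of -0.06 and with 0 higher and 30 lower at 1 day. The mean without 1 day gave 9 higher and 6 lower, the means without 5 hours or 2 days 1 higher, and 2 were higher without the first apoptotic library of 5 hours, the second of 2 days or the second EV library of 2 days. RPL23 was lower by -0.56 ± 0.032. Nuclear-encoded respiratory chain genes gave 3 of 26 higher (5 without 2 days) and 13 lower (5 without 1 day). ATP5F1A, an ATP synthase subunit, was higher by 0.51 ± 0.033 and COX6C was 1.4-fold higher. NDUFA4 and NDUFV1 were lower, at 0.836 and 0.87 times the EV level. Proteasome genes gave 12 of 26 higher and 3 lower with a median of 0.08, and 5 higher without 2 days. Glycolysis and hypoxia genes gave 9 of 31 higher and 11 lower (5 lower without 1 day). VEGFA, the vascular growth factor, was higher by 0.75 ± 0.036 and NDRG1 was 1.26-fold higher. SLC2A1 and ALDOC were lower, at 0.716 and 0.679 times the EV level. Autophagy and lysosome genes gave 6 of 30 higher and 12 lower, and CTSD, for cathepsin D, was lower (-0.65 ± 0.041).

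The 13 messenger RNAs of the mitochondrial genome, often read as a sign of cell and RNA quality, took 3.87 and 5.34% of counts in the apoptotic libraries at 5 hours, 4.03 and 4.44% at 1 day and 4.14 and 2.67% at 2 days. In EV libraries they took 3.18 and 3.1%, 4.09 and 4.36%, and 3.97 and 3.98%. The lines overlapped at 1 and 2 days, and the 2 apoptotic libraries of a time differed more than those of EV at 5 hours and 2 days. All 13 were called higher at 5 hours (median 0.61), 1 higher and 1 lower at 1 day, and 0 higher and 3 lower at 2 days (median -0.25). In the mean 2 were higher, a count that came to 1 without the second apoptotic library of 5 hours or the first of 2 days, to 7 without the first apoptotic library of 5 hours and to 10 without the second of 2 days, and that was 9 with no filter on low counts. Averages without 5 hours gave 0 higher and 2 lower, and those without 2 days gave 11 higher. Of 8 long noncoding RNAs tested, GAS5, SNHG1 and OIP5-AS1 among them, 3 were higher and 3 lower in the mean, with MALAT1 at -0.62 ± 0.052. Their part in the other differences was not tested.

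**Figure D3:**
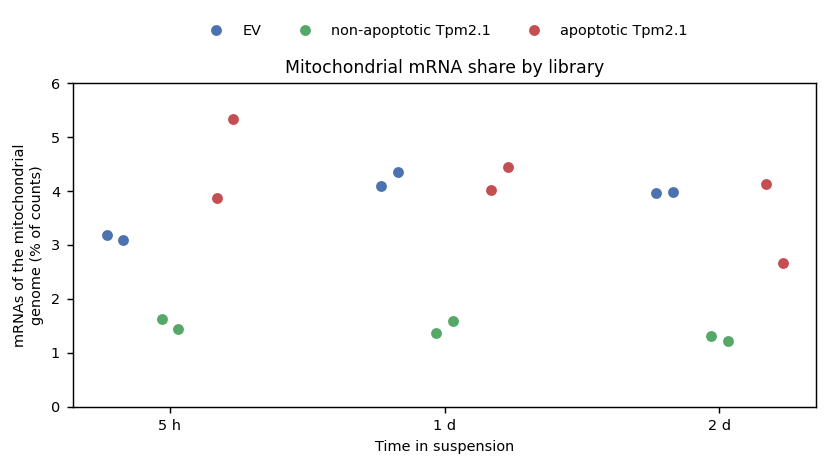
Share of counts from the 13 mRNAs of the mitochondrial genome in each suspended library by time, with EV in blue, non-apoptotic Tpm2.1 in green and apoptotic Tpm2.1 in red. Non-apoptotic libraries lie at 1.22 to 1.62%, and EV and apoptotic libraries at 2.67 to 5.34%.

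The differences between the lines shifted from 5 hours to 2 days in 2796 genes, with 1347 moving up (7.84%) and 1449 down (8.43%). Those moving up came to 860 without the second apoptotic library of 2 days and 893 without the second of 5 hours, and those moving down to 957 without the second EV library of 2 days. Inflammatory genes with the largest differences grew apart: IL1B differed by 3.53, 4.51 and 5.05 at the 3 times (change 1.52), PTGS2 by 3.02, 4.17 and 4.67 (change 1.65) and MMP3 by 3.68, 5.56 and 5.35 (change 1.67). TIMP1 went from 0.07 to 1.25 (change 1.18). Within the NF-kB list as a whole 6 members moved up and 7 down, so the list did not move as a block. Interferon-stimulated genes moved down in 7 cases and up in 1. IFIT1 narrowed from 4.04 to 2.58 (change -1.46), IFIT2 from 4.26 to 2.65 (change -1.61) and OASL from 3.73 to 2.43 (change -1.30). IFIT1 rose in EV over that time, as given above.

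Of the unfolded protein response genes 4 moved up and 2 down (median -0.004), and of 20 heat shock and chaperone genes 0 moved up and 5 down. HERPUD1 was one that narrowed: it stood at 70.5 and 72.3 CPM in EV against 281 and 286 CPM in apoptotic libraries at 5 hours, and at 91.5 and 88.4 against 132 and 142 CPM at 2 days (change -1.38). DNAJB1 went from 1.59 to 0.12 (change -1.46). HMOX1, heme oxygenase 1 and an NRF2 target, stood at 360 and 382 CPM in EV against 84.2 and 71.3 CPM at 5 hours and at 11 and 9.66 against 9.63 and 10.9 CPM at 2 days (change 2.25). The high value was that of EV cells at 5 hours. BMP4 crossed from 0.52 to -1.29 (change -1.80), and AQP3, a water and glycerol channel, from 0.60 to -2.82 (change -3.42).

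Among well-expressed genes with the largest changes, PLCB2, a phospholipase C (change 2.48), ASS1, which makes argininosuccinate (2.15), and CADPS2, of vesicle release (2.13), moved up. PLCB2 stood at 8.56 to 10.2 CPM in apoptotic and 0.0623 to 1.05 CPM in EV libraries, so its fitted change rests on few EV counts. The same ranking held GPAT2 (-5.85), CXCL10 (-5.57), CH25H (-4.58) and RSAD2 (-3.58) moving down, all with 0 counts or almost none in EV at 5 hours, so that these fitted sizes depend on the prior count. Without the first EV library of 5 hours, PLCB2 (1.90; adjusted p = 0.136), GPAT2 (-5.84; 0.0782), CXCL10 (-5.57; 0.0542) and RSAD2 (-2.68; 0.184) were not called. Without the second EV library of 2 days, PLCB2 (1.90; adjusted p = 0.105), GPAT2 (-4.91; 0.175) and RSAD2 (-2.20; 0.476) were not called, nor was GPAT2 (-5.85; 0.0643) without the second EV library of 5 hours. U2AF1, a splicing factor with a near-identical copy elsewhere in the genome, moved up (4.04), but its 2 EV libraries stood at 13.7 and 1.98 CPM at 5 hours and at 15.9 and 2.9 CPM at 1 day, and without the first EV library of 5 hours the change was 2.05 and not called (adjusted p = 0.226). EIF3CL, a near copy of EIF3C, moved down (-3.79), with EV libraries at 50.4 and 4.92 CPM at 2 days, and its change was -1.30 without the first of these. BMF moved up (0.81) as its apoptotic level came closer to EV.

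Of the lists given here, 1 moved whole: all 13 mitochondrial mRNAs moved down (median -0.85). Of 34 actin and focal adhesion genes 2 moved up and 16 down, with ACTN4, for alpha-actinin 4, going from 0.18 to -0.57 (change -0.75). The G1/S list gave 0 of 30 up and 12 down, and the MHC class I list 0 of 12 up and 7 down. The median change of all tested genes was -0.002.

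**Figure D4:**
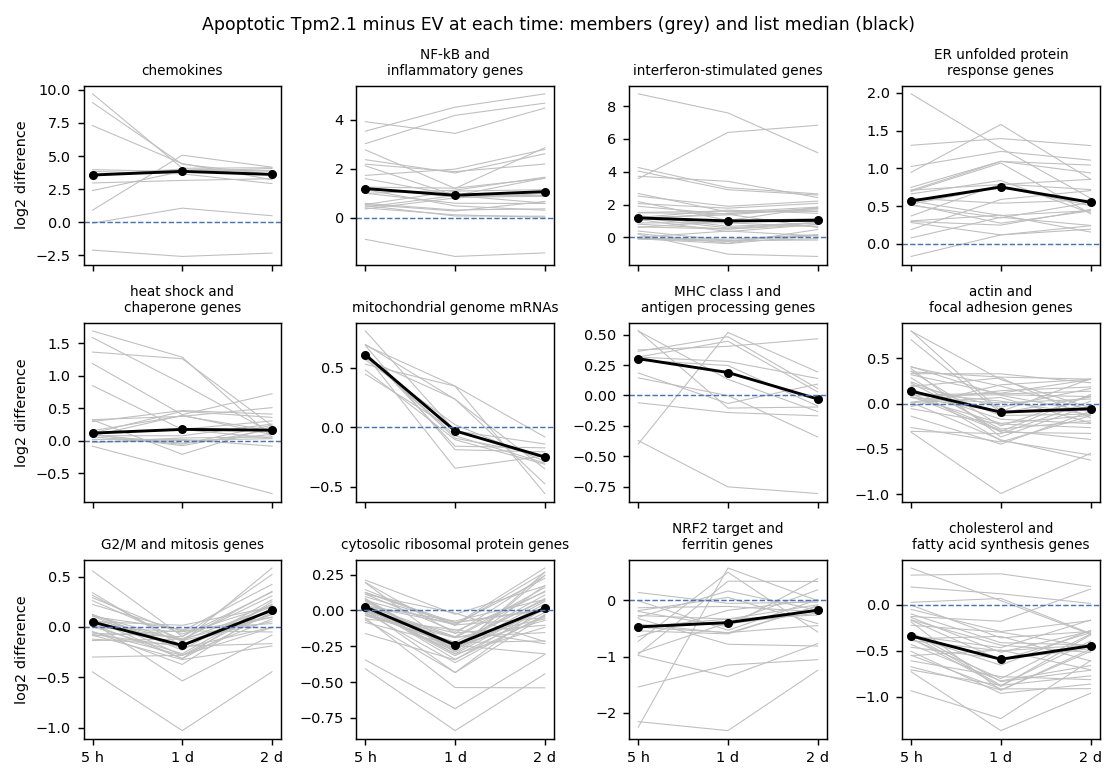
Log2 difference between apoptotic Tpm2.1 and EV cells at 5 hours, 1 day and 2 days for the tested members of 12 lists (grey lines) and their median (black), with a dashed line at 0. Medians of chemokines, NF-kB and unfolded protein genes stay above 0, those of NRF2 and cholesterol genes below 0, and the mitochondrial median falls from 0.61 to -0.25.

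The non-apoptotic Tpm2.1 cells of the same cultures, set against the same EV libraries, gave 5047 genes higher (29.4%) and 5143 lower (29.9%). These comparisons share the EV libraries, so their values are given side by side. MMP1 differed from EV by 6.18 ± 0.051 in apoptotic and 6.33 in non-apoptotic cells, IL1B by 4.36 and 4.58, CXCL8 by 3.82 and 3.72, IFIT1 by 3.18 and 3.41, HSPA5 by 1.34 and 1.54, NQO1 by -1.03 and -0.71, BMF by -0.97 and -0.99, and EPHA2 by 0.22 and 0.25. Set directly against each other, the fractions differed in 2867 genes higher (16.7%) and 3745 lower (21.8%) in apoptotic cells, of which 538 and 14 were past 2-fold. Between the fractions BH3-only genes gave 0 of 12 higher and 2 lower, BCL2 survival genes 1 of 5 and 2, and inhibitor of apoptosis genes and CFLAR 2 of 6 and 2. Caspase and apoptosome genes gave 1 of 13 and 3, death receptor genes 1 of 12 and 5, and flippases and scramblases 0 of 13 and 2. Non-apoptotic cells against EV gave 6 BH3-only genes higher and 4 lower, and 9 caspase and apoptosome genes higher and 3 lower. BMF (0.02; adjusted p = 0.817) and EPHA2 (-0.03; adjusted p = 0.473) were not called between the fractions, although after a correction for GC content EPHA2 was called at -0.13 (adjusted p = 0.000144). IL1B was lower in apoptotic than in non-apoptotic cells by -0.22, MMP1 by -0.14, HSPA5 by -0.21, NQO1 by -0.33 and TPM2 by -0.25. MMP1 was not called between the fractions without 5 hours (-0.11; adjusted p = 0.0703) or with 4 days (-0.07; adjusted p = 0.0844).

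Mitochondrial mRNAs and the listed long noncoding RNAs differed between the fractions. All 13 mitochondrial mRNAs were higher in apoptotic than in non-apoptotic cells (median 1.53), and against EV all 13 were lower in the non-apoptotic cells (median -1.39). MT-CYB, for cytochrome b, was higher by 1.67 and MT-CO2, a cytochrome oxidase subunit, by 1.28. The list of long noncoding RNAs gave 7 of 8 higher, with MALAT1 at 1.03. All 40 ribosomal protein genes were lower in the apoptotic fraction (median -0.27), while against EV 34 were higher and 3 lower in the non-apoptotic cells. A further ranking took well-expressed protein-coding genes that were lower in apoptotic cells against both EV and the other fraction. Among its lowest values were RPL38 (-0.50), a ribosomal gene outside that list, NDUFS5 (-0.48), OST4 (-0.46) and LDHB (-0.45). Other genes, not held to these limits, had larger gaps.

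Between the attached lines 1788 genes were higher (10.4%) and 1728 lower (10.1%) in Tpm2.1 cells. These 4 libraries are none of the 12. Genes higher in both comparisons numbered 1094, beside 3631 higher in suspended apoptotic cells (21.1% of tested genes) and 1788 higher in attached cells. Genes lower in both numbered 1142, beside 4100 lower in suspension (23.8%) and 1728 lower in attached cells. Of all calls in either direction these are 14.2% and 14.8% in suspension and 31.1% and 32.5% in attached cells. Opposite calls came to 342 genes (4.42% and 9.73% of the same totals). Across the 17191 genes the mean difference in suspension and the attached difference had a Pearson correlation of 0.515, a description across genes that are not independent.

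The difference itself, suspended minus attached, was called in 1382 genes upward (8.04%) and 1613 downward (9.38%), or 2995 in all. The count was 1893 without the first attached Tpm2.1 library and 1894 without the second attached EV library. The genes upward came to between 836 and 904 when any 1 of the 4 attached libraries was left out, and after a correction for GC content 2027 genes went up and 1319 down. Of the unfolded protein response genes 20 of 21 were larger in suspension and 7 were called in attached cells (median 0.07 there). HSPA5 stood at 729 ± 13.2 CPM in attached EV and 965 ± 0.556 CPM in attached Tpm2.1 cells (SD, n = 2), a difference of 0.40 against 1.34 in suspension (suspended minus attached 0.93). Of the NF-kB list 17 went upward and 3 downward in this contrast, with 15 of 22 already higher in attached cells. IL1B stood at 22.3 ± 0.557 and 52.8 ± 1.72 CPM in attached cells (suspended minus attached 3.11), CXCL3 differed by 0.21 in attached and 3.38 in suspended cells (3.17), and BCL2A1 by 0.10 and 2.10 (2.00). MCL1 (0.73) and HBEGF (1.32) were larger in suspension too.

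Fewer members of other lists were called for the gap between the settings. Interferon-stimulated genes were higher in 20 of 30 cases in attached cells already, with a median of 0.92, and 9 were larger in suspension. Cholesterol genes were lower in 25 of 32 cases in attached cells (median -0.44). Their suspended minus attached value was called above 0 in 2 genes and below 0 in 4. NQO1 differed by 0.04 in attached and -1.03 in suspended cells (suspended minus attached -1.07).

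BMF stood at 3.25 ± 0.22 CPM in attached EV and 3.45 ± 0.0667 CPM in attached Tpm2.1 cells, far below all suspended libraries of either line. The attached lines differed by 0.08 (suspended minus attached -1.06). MALAT1 turned from 1.26 in attached to -0.62 in suspended cells (-1.88). Among well-expressed genes called in the same direction in the mean, the largest gaps upward were those of GPAT2 (4.72), ESM1 (4.14) and RSAD2 (3.56), with CXCL3 and IL1B next, and downward those of RAB17 (-2.95), ITGA10 (-2.62), TENM4 (-2.06), AQP3 (-2.06) and VIPR1 (-2.01). RAB17, at 0.135 ± 0.0671 CPM in attached EV cells, was not called without the second attached Tpm2.1 library (-1.74; adjusted p = 0.577) or the second attached EV library (-2.52; adjusted p = 0.109). TPM2 itself differed by 7.05 in attached cells (-0.63).

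**Figure D5:**
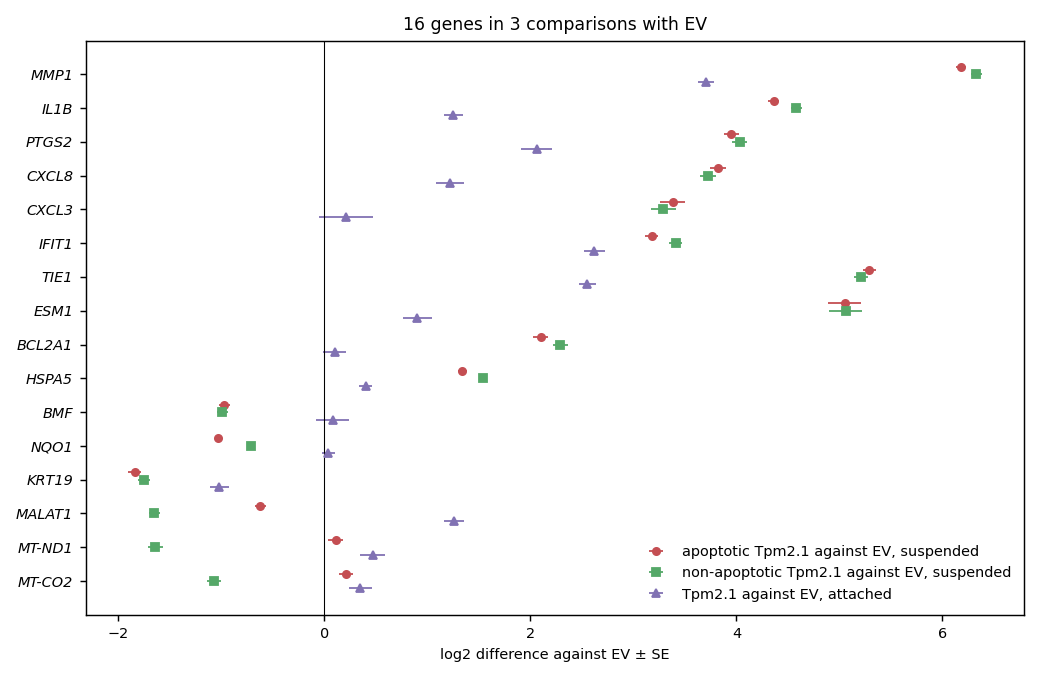
Log2 difference from EV with SE for 16 genes in apoptotic suspended (red circles), non-apoptotic suspended (green squares) and attached (purple triangles) Tpm2.1 cells. The suspended fractions lie close together for MMP1 to KRT19 and apart for MALAT1, MT-ND1 and MT-CO2, and the attached difference is smaller than the suspended one for IL1B (1.25), CXCL3 (0.21), ESM1 (0.90) and BCL2A1 (0.10).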

How the data were processed

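RNA of MDA-MB-231 cells was taken with a column kit, mRNA was selected on poly-T beads and libraries were primed with random hexamers, per the labels' protocols. Counts per gene (whole numbers, not normalized) and FPKM were deposited by the authors as 1 table each. Genome build hg38 and DESeq2 are named in the submitters' processing notes. The sources used here give no aligner, counting tool or strand setting, so overlapping and antisense genes cannot be told apart. Identifiers and coordinates in the deposited count table matched GENCODE 29.

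Counts of all 28 libraries (14 groups of 2) were fitted together with edgeR 4.0.16 in R 4.3.3: TMM scaling, filterByExpr, a mean for each group and the quasi-likelihood F test with Benjamini-Hochberg adjustment over the 17191 genes tested of 58735. Pooling the groups gave 14 residual degrees of freedom and a common biological coefficient of variation of 4.77%. A gene was called at an adjusted p under 0.05. SE is the absolute log2 fold change over the square root of F. CPM are on the TMM scale. FPKM served for tropomyosin levels and, as an alternative, library sizes. Floors (3 counts over a group) cover counting error only, while the SE also takes in the spread between libraries, pooled over groups. Replicate libraries differed by more than sampling noise in every group used.

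The comparison and the 49 gene lists were chosen with earlier results of these data known. Named were TPM2, EPHA2, AKT1, AKT2 and BMF. Named too were the 8 highest and 8 lowest called protein-coding genes with at least 10 CPM in a group and no overlap between the lines at any time, the 5 highest and 5 lowest for each further contrast, and up to 4 members of each list with the smallest p. Not every gene that met the rule is named, some results are not reported here, and genes named after their values were seen are marked. Alternatives were DESeq2 1.42.0, its size factors, the FPKM library sizes, no filter, protein-coding genes alone, the compared libraries alone, the replicate number as a block, a GC correction, each library or time left out, and 4 days included.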

Additional observations from a re-analysis of the deposited data

Results flagged for a closer look

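The difference between apoptotic Tpm2.1 and EV cells itself changed from 5 hours to 2 days, by an interaction contrast in the edgeR fit (adjusted p under 0.05), in 2796 genes. Among the genes named above, those whose log2 difference moved up were BMF (0.81), U2AF1 (4.04), PLCB2 (2.48), HMOX1 (2.25), ASS1 (2.15), CADPS2 (2.13), IL1B (1.52), PTGS2 (1.65), MMP3 (1.67) and TIMP1 (1.18). Those whose difference moved down were EPHA2 (-1.10), GPAT2 (-5.85), CXCL10 (-5.57), CH25H (-4.58), EIF3CL (-3.79), RSAD2 (-3.58), AQP3 (-3.42), INHBB (-2.07), RAB17 (-1.89), BMP4 (-1.80), IFIT2 (-1.61), IFIT1 (-1.46), DNAJB1 (-1.46), HERPUD1 (-1.38), OASL (-1.30) and ACTN4 (-0.75).

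The difference between the lines also differed between suspended apoptotic cells and attached cells, by the same kind of contrast, in 2995 genes. It was larger in suspension for GPAT2 (4.72), ESM1 (4.14), RSAD2 (3.56), CXCL3 (3.17), IL1B (3.11), BCL2A1 (2.00), HBEGF (1.32), HSPA5 (0.93) and MCL1 (0.73). It was lower in suspension for RAB17 (-2.95), ITGA10 (-2.62), TENM4 (-2.06), AQP3 (-2.06), VIPR1 (-2.01), MALAT1 (-1.88), NQO1 (-1.07), BMF (-1.06) and TPM2 (-0.63). A separation on beads is stated for suspended Tpm2.1 cells alone, so suspension and the passage over beads cannot be told apart in these values.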

How the results depend on the processing

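With 2 libraries a group, depth limits genes with few EV counts, and calls of small differences rest on a spread pooled over all groups. Including 4 days raised the calls to 11692 in the mean against EV, 9973 between the fractions and 7525 for suspended minus attached. It turned EPHA2 to -0.47, XIAP to 0.13, DDIT4 to -0.22, TPM1 to 0.05 and EDEM1 to -0.09 in the mean, and BMF to -0.30 and RPL38 to 0.06 between the fractions. EPHA2 also turned, to -0.05, without 5 hours. For these values the cause was not tested.

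Leaving out 1 library in turn gave 7061 to 7378 calls in the mean, 5272 to 6898 between the fractions, 1880 to 2808 for the change over time and 1893 to 3239 for suspended minus attached. This leaves 1 library in a group, whose spread is then taken from the other groups. No other total of called genes moved by more than 1.5 times under the settings tried, but several counts by direction or by list did, as given beside them. Over the named genes 4387 values kept their side of the threshold and, where called in either fit, their direction. Of the rest, 33 lost the call, 8 gained it and 8 reversed with a call in at least 1 fit.

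With the replicate number as a block 7714 genes were called in the mean, against 7731 without it. Deviations of same-numbered apoptotic and EV libraries correlated at 0, 0.005 and 0.014 at the 3 times. Those of same-numbered apoptotic and non-apoptotic libraries correlated at 0.01, 0.053 and 0.049. The titles do not say whether an equal number marks the same culture, and low correlations cannot settle it. The main fit treated all groups, the fractions included, as unpaired.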
